A study of Mus musculus with 18 samples.

Results

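Msx1-positive and Msx1-negative cells of day 16 were compared here, with 2 libraries of each fraction, which are 4 of the 18 samples of the study. The samples were chosen by their labels alone, and all gene rows were read: the table holds 54114 gene symbols, of which 22294 had enough counts to be tested. Gene expression was measured by RNA sequencing (RNA-seq) in mouse embryonic stem (ES) cells that carry the red fluorescent protein tdTomato as a reporter of Msx1. The cells also carried an inducible Dlx2 transgene, formed embryoid bodies (aggregates in which ES cells differentiate) in hanging drops with doxycycline at 1 µg/ml, and were sorted by flow cytometry. Both fractions of day 16 therefore share the inducible Dlx2 and the doxycycline, and differ by the sort. An uninduced or GFP-expressing control of day 16 was not analysed here, and the labels read here do not state the sort gates or the time of doxycycline exposure after aggregation. The series' design text gives the purpose as an evaluation of how the positive and negative populations differ at this stage, with the same sort at day 8. Nothing in the labels says whether the 2 libraries of a fraction came from separate cultures, so the p-values measure only the spread between these libraries, which may be technical.

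Msx1 encodes a homeobox transcription factor of the cranial neural crest-derived mesenchyme (ectomesenchyme), which forms the bones, cartilage and tooth pulp of the face. Dlx genes pattern the pharyngeal arches, where ectomesenchyme lies, and Dlx2 acts in the maxillary and mandibular parts. In teeth and bone, ectomesenchymal cells lay down a collagen I matrix that acidic phosphoproteins such as Dmp1 and Ibsp help to mineralise. ES cells, by contrast, hold their undifferentiated state through Pou5f1, Sox2 and Nanog.

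The 4 libraries held 59723478 to 64696124 counts each, and 14762 to 14968 genes stood at 1 CPM or more (counts scaled to a common library size). The share of counts in the 10 most abundant genes was 4.67% to 5.37%. CPM below are scaled by the trimmed mean of M-values (TMM). Each log2 change is the Msx1-positive level over the Msx1-negative level with its standard error, and a gene is called where edgeR's Benjamini-Hochberg adjusted p over all tested genes was below 0.05. An exact test on 2 against 2 libraries cannot go below a two-sided p of 0.333, so the calls rest on the spread that edgeR shares across genes.

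Msx1 (chr5:37820485-37824583, minus strand, GRCm38), on whose reporter the cells were sorted, stood at 74.7 and 82.7 CPM in the Msx1-positive libraries and at 0.83 and 0.763 CPM in the Msx1-negative libraries. The fractions did not overlap, and the log2 change was 6.62 ± 0.19 (adjusted p = 1.77e-11), which checks the labels and is no finding. Dlx2 (chr2:71543408-71546754, minus strand) stood at 292 and 346 CPM in the positive libraries and at 133 and 148 CPM in the negative ones. It was thus high in all 4 libraries and higher in the positive ones, with a log2 change of 1.18 ± 0.083 (adjusted p = 1.35e-08). The counts do not separate the transgene from the endogenous gene.

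Of the 22294 genes tested, 6943 (31.1%) were called higher and 6904 (31%) were called lower in the positive fraction, and 8447 were not called. A change of at least 1 on the log2 scale was reached by 3692 of the higher and 3589 of the lower genes. The median log2 change over all tested genes was -0.02. These shares of 31.1% and 31% are the background against which each count of called list members below is read. The lists were chosen with earlier results of these data known, so the counts are descriptions and no independent support. Among protein-coding genes the shares were 37.6% and 34.1%. A list whose shares lie near these gives no result about its cell type or pathway. In these bulk libraries, fewer cells of a type and less RNA of a gene per cell cannot be told apart.

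**Figure D1:**
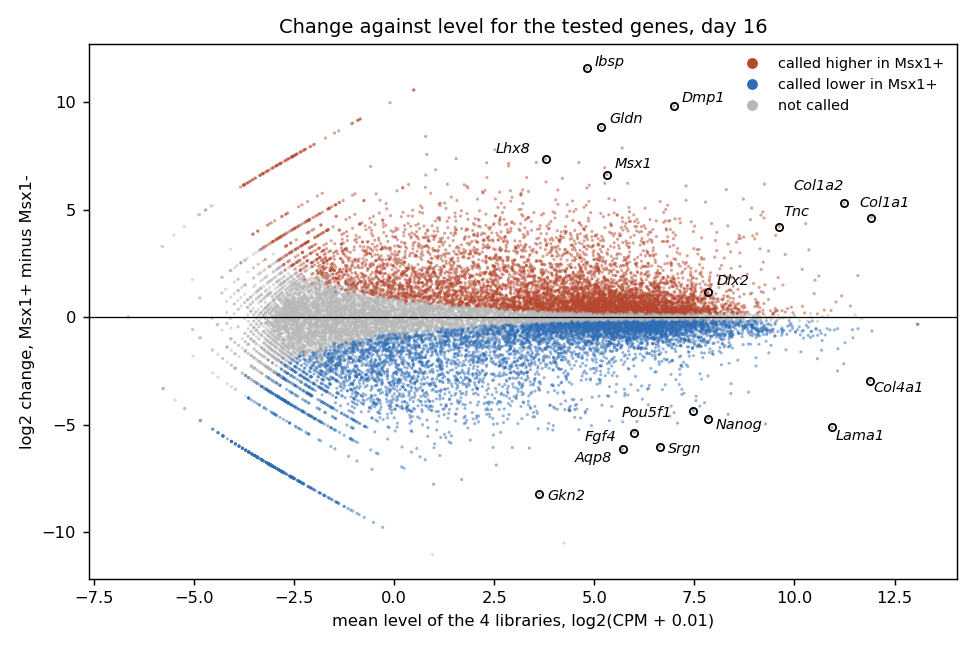
Each point is 1 of the 22294 tested genes, by its mean level over the 4 day-16 libraries (log2 of CPM + 0.01) and its fitted log2 change (Msx1-positive minus Msx1-negative); red points were called higher, blue points lower and grey points not called. Called genes lie on both sides at all levels, with Ibsp, Dmp1 and Gldn far above 0 and Gkn2, Srgn and Lama1 far below; the straight lines of points at the left are genes with few or no counts in one fraction, whose fitted change is no bound.

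Transcription factors and receptors of ectomesenchyme and the pharyngeal arches were higher almost throughout. Of the 36 listed genes, 35 were called higher and 1 lower, with a median log2 change of 2.80. Msx1, the sort gene, is among the 36. Prrx1, a homeobox factor of limb and facial mesenchyme, stood at 618 and 619.6 CPM in the positive libraries and at 10.2 and 10.04 CPM in the negative libraries, a log2 change of 5.93 ± 0.08. Alx4, a homeobox factor of the frontonasal skeleton, stood at 29.3 and 25.5 CPM against 0.299 and 0.398 CPM (6.29 ± 0.21). Both negative libraries were low in each gene.

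The Dlx family did not move as one. Dlx1, the neighbour of Dlx2 in the genome, stood at 73.7 and 77.8 CPM in the positive and 1.01 and 1.01 CPM in the negative libraries (6.22 ± 0.11). Dlx5 and Dlx6, which specify the lower jaw, were higher by 5.45 and 4.55 on the log2 scale. Dlx3, which acts in epidermis, placenta and tooth, was the 1 lower gene of the list: it stood at 11.9 and 8.69 CPM in the positive and 24.5 and 25.9 CPM in the negative libraries (-1.29 ± 0.13). The sorted gene's paralog Msx2 was higher as well, at 68.2 and 73.2 CPM against 11.6 and 14.6 CPM (2.43 ± 0.096).

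Hand2, a factor of the lower part of the arches, stood at 57.1 and 59.1 CPM in the positive and 2.04 and 1.96 CPM in the negative libraries (4.86 ± 0.13). Ednra, the endothelin receptor that acts upstream of Hand2 in the arches, stood at 106 and 105 CPM against 5.05 and 5.19 CPM (4.36 ± 0.086). Twist1, which keeps crest-derived cells mesenchymal, stood at 134 and 131 CPM against 9.91 and 12.9 CPM (3.54 ± 0.12). In each of these 3 genes the positive libraries were the high ones. Changes in Hand1 (0.51 ± 0.075) and Pdgfra (0.44 ± 0.062) were called but small, since the negative libraries also held 37.5 and 40.3 and 145 and 153 CPM of them.

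**Figure D2:**
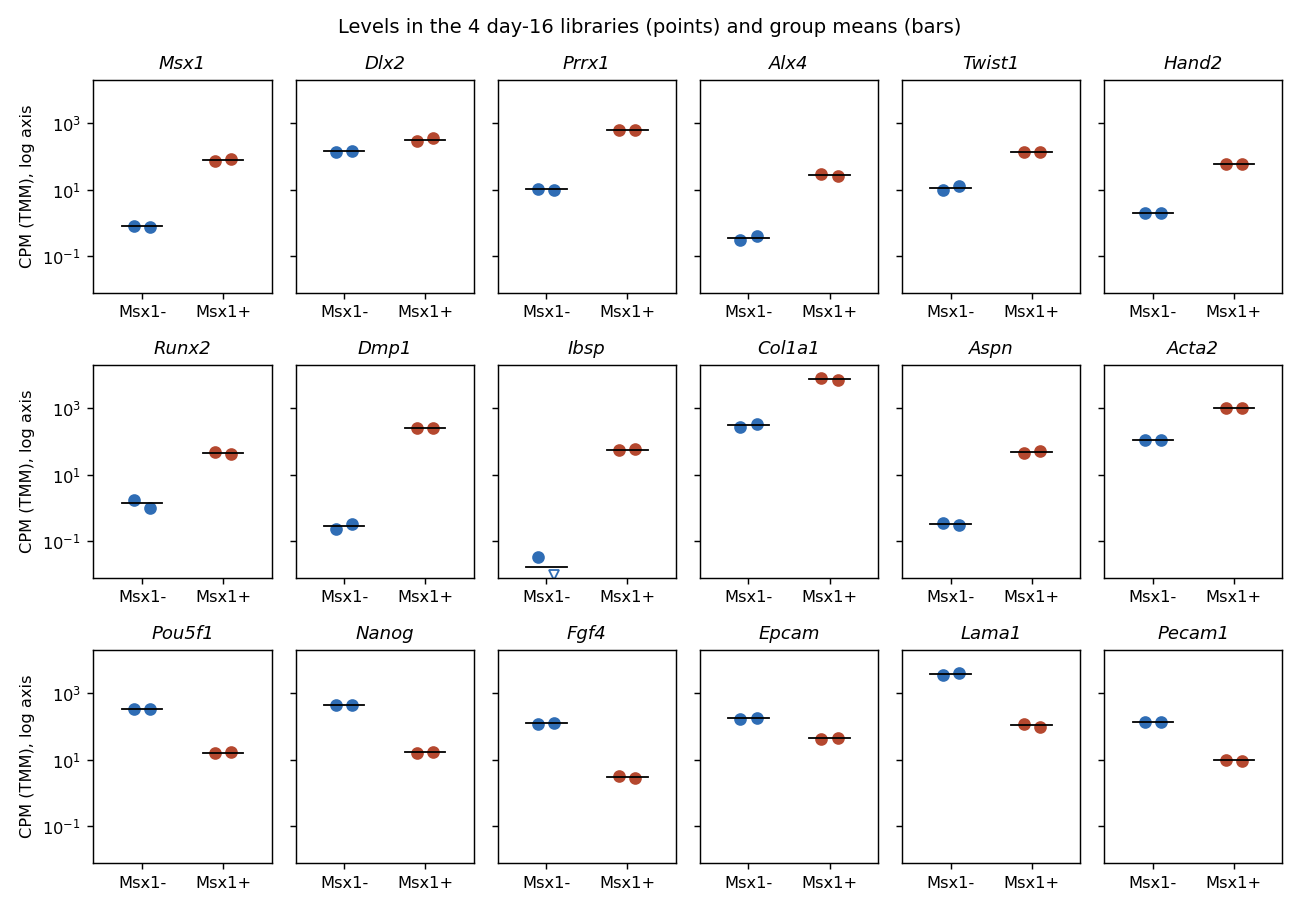
Levels of 18 genes in each of the 4 day-16 libraries, in TMM-scaled CPM on a log axis; points are libraries, bars are the means of the 2 libraries, and the open triangle at the foot of the axis in the Ibsp panel is a library with no count. In each panel the positive and the negative points stand apart, as for Prrx1 (618 and 619.6 CPM against 10.2 and 10.04 CPM) and Nanog (15.9 and 17.6 CPM against 452 and 432 CPM).

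The earlier regulators of the neural crest gave no such common direction. Of 21 crest and plate border genes, 11 were called higher, 7 lower and 3 were not called, with a median log2 change of 0.25. Sox9, which directs crest and cartilage formation, stood at 47.3 and 50.1 CPM in the positive and 4.81 and 5.29 CPM in the negative libraries (3.27 ± 0.11). Snai2, a repressor of epithelial genes in migrating crest, stood at 35.98 and 43.1 CPM against 2.14 and 3.14 CPM (3.905 ± 0.18). Both were high in the positive libraries only.

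Sox10, the marker of migrating crest and glia, stood at 0.656 and 0.363 CPM in the positive and 0.598 and 0.763 CPM in the negative libraries and was not called (-0.42 ± 0.43, adjusted p = 0.416). Tfap2a, a specifier of the crest and the surface ectoderm, stood at 6.63 and 6.25 CPM against 5.91 and 5.49 CPM (0.18 ± 0.15, adjusted p = 0.336). These 2 genes were low in all 4 libraries. Foxd3, a factor of early crest and of ES cells, had no count in the positive libraries and 63 counts in the negative libraries, so it was at least 21.7-fold lower with a floor of 3 counts over the group. The zinc finger gene Zic5, of the neural plate border and of ES cells, was lower, with a log2 change of -2.84.

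Genes of the tooth-forming mesenchyme were mostly higher: 16 of 19 listed genes were called higher, 1 lower and 2 not called, with a median log2 change of 2.64. Lhx8, a LIM homeobox factor of the tooth-bearing arch mesenchyme, stood at 26.7 and 27.97 CPM in the positive and 0.249 and 0.083 CPM in the negative libraries (7.35 ± 0.22, adjusted p = 9.71e-13). Inhba, which encodes the activin A subunit, stood at 226 and 218 CPM against 6.39 and 5.69 CPM (5.200 ± 0.093). In both, the negative libraries held only a small fraction of the level of the positive ones.

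Pax9, a paired-box factor without which teeth arrest, stood at 13.9 and 15.7 CPM in the positive and 1.41 and 1.86 CPM in the negative libraries (3.18 ± 0.17). Barx1, a homeobox factor of molar mesenchyme, stood at 79.3 and 91.3 CPM against 5.16 and 6.39 CPM (3.88 ± 0.12). Pitx1, of the mandible and hindlimb, stood at 95.5 and 92.9 CPM against 6.46 and 7.2 CPM (3.79 ± 0.092). All 3 factors were high in the positive libraries. Fgf3, a growth factor of the dental papilla, was the 1 lower member (4 and 4.86 CPM against 6.26 and 6.01 CPM, log2 -0.47), and its call was lost when either negative library or the first positive library was left out (adjusted p up to 0.167).

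Genes of mineralising bone and tooth were mostly higher, and Dmp1 had the largest log2 change of all called genes at 5 CPM or more in the higher fraction with 10 counts or more in the other. Of 17 tested members, 15 were called higher, 1 lower and 1 was not called, with a median log2 change of 5.25, or 5.01 with the gene that had no count in one fraction set at its bound. Dmp1, a matrix phosphoprotein of osteocytes and odontoblasts, stood at 259 and 248 CPM in the positive and 0.232 and 0.332 CPM in the negative libraries, a log2 change of 9.803 ± 0.13 (adjusted p = 1.72e-15). Ibsp, the bone sialoprotein, had 6994 counts in the positive and 2 counts in the negative libraries. The ratio was 3391, with a 95% interval of 938 to 28003 that covers counting error only. Dspp, the precursor of the main dentine proteins, was scarce, with 1.25 and 1.04 CPM in the positive libraries and 3 counts in the negative ones, a ratio of 45.9 (95% interval 15.4 to 225).

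Dspp, Dmp1, Ibsp, Mepe and Spp1 encode phosphoproteins of one family and lie side by side in the genome, from Dspp at chr5:104170712-104180127 to Spp1 at chr5:104435118-104441050. Spp1, osteopontin, which many cell types secrete, stood at 755 and 842 CPM in the positive and 369 and 334 CPM in the negative libraries (1.18 ± 0.078). Mepe had no count in the 4 libraries and was not tested. The promoter stretches of the 3 most abundant members are given because these neighbours were higher together, and that of Nanog because it was among the genes that moved the other way. They run 5′ to 3′ on the plus strand of RefSeq's GRCm38.p6 up to the gene's start, and the Ibsp and Dmp1 stretches end where the GENCODE gene model begins. Capitals mark 3 motifs on either strand. The first is AACCACA or its reverse complement TGTGGTT, the core letters of Runx sites. The second, found at homeobox sites, is TAATTG or its reverse complement CAATTA. The third, part of the octamer that Pou5f1 reads, is TTTGCAT or its reverse complement ATGCAAA. No 2 of the marked runs overlap.
Ibsp (chr5:104299037-104299170): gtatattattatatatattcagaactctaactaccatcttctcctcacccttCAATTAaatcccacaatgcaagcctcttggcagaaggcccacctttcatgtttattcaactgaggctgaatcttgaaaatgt
Dmp1 (chr5:104202367-104202612): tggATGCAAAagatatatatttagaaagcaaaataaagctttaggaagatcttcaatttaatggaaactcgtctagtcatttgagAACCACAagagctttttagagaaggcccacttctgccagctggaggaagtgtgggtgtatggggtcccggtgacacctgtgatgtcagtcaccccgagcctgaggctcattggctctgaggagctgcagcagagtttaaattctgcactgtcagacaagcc
Spp1 (chr5:104434861-104435110): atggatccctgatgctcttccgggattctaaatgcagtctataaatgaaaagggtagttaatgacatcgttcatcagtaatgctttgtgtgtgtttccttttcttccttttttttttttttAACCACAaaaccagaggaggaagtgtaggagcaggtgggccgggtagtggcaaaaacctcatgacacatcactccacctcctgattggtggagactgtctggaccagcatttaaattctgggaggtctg
Nanog (chr6:122707239-122707488): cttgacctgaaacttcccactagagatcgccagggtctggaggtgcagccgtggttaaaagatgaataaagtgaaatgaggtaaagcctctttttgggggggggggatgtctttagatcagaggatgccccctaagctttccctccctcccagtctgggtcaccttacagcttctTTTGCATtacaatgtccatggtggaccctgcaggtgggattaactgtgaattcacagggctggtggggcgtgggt

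In the stretches of Dmp1 and Spp1 an AACCACA run began 165 and 129 bases before RefSeq's start. The Ibsp stretch held 1 CAATTA run, 198 bases before RefSeq's start, and Nanog held 1 TTTGCAT run, 75 bases before it. Dmp1 also held an ATGCAAA run 247 bases before its start. Of the 32851 promoter windows of 250 bases in RefSeq's table, 4.4% held the Runx run, 7.17% the homeobox run and 4.12% the octamer part on either strand. Among the windows of genes called higher by at least 1 on the log2 scale (3274 windows matched by symbol) these shares were 3.24%, 5.28% and 3.7%. Among those called lower by as much (2734 windows) they were 4.68%, 5.34% and 4.28%. Among the windows of all tested genes they were 3.41%, 4.84% and 3.33%. The shares in the higher genes were thus below those over all windows in each of the 3, and, against tested genes, lower for the Runx run and higher for the other two; no difference was tested, and a match is a description of the letters alone.

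The transcription factors of bone formation were higher too. Runx2, the master factor of osteoblasts, stood at 46.95 and 43.4 CPM in the positive and 1.79 and 1.01 CPM in the negative libraries (5.01 ± 0.31, adjusted p = 3.08e-06). Sp7, which acts after Runx2, stood at 33.3 and 32.96 CPM against 0.83 and 0.913 CPM (5.25 ± 0.14). Both factors were near 1 CPM in the negative libraries. Bglap2, an osteocalcin copy, had 427 counts in the positive libraries and 1 in the negative ones, and because Bglap and Bglap2 are near-identical the split of reads between them is uncertain.

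The enamel matrix genes Ambn (ameloblastin) and Enam (enamelin), neighbours on chromosome 5, were likewise higher. Ambn stood at 14.04 and 14.7 CPM in the positive and 0.166 and 0.0332 CPM in the negative libraries (7.15 ± 0.28), and Enam had 86 counts in the positive and none in the negative libraries, at least 27.8-fold higher. Amelx, Mmp20 and Klk4, which also belong to enamel formation, held 0 to 6 counts a library and were not tested. Alpl, the alkaline phosphatase of mineralising cells that ES cells also carry, went the other way, at 16.6 and 20.01 CPM in the positive and 189 and 190.1 CPM in the negative libraries (-3.37 ± 0.078, adjusted p = 5.55e-14).

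All 14 fibrillar and beaded collagen genes were called higher, with a median log2 change of 4.53. Col1a1, the main chain of bone and skin collagen, stood at 7855 and 7062 CPM in the positive and 279.5 and 325 CPM in the negative libraries (4.62 ± 0.16). Its partner chain Col1a2 stood at 4911 and 4493 CPM against 114 and 126 CPM (5.29 ± 0.083). Col6a3, of the beaded filaments around mesenchymal cells, stood at 906 and 749 CPM against 18.7 and 18.1 CPM (5.49 ± 0.11). The negative libraries thus also carried collagen I transcripts, at a level well below that of the positive ones. The 14 genes summed to 20230 and 18250 CPM in the positive and to 732 and 810 CPM in the negative libraries.

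Among 32 other matrix and cross-linking genes, 30 were called higher and 2 lower, with a median log2 change of 3.91. Aspn, a small leucine-rich proteoglycan of the periodontal ligament, stood at 45.2 and 51.95 CPM in the positive and 0.365 and 0.299 CPM in the negative libraries (7.19 ± 0.18). Postn, periostin, stood at 1175 and 1229 CPM against 16.4 and 16.7 CPM (6.18 ± 0.21). Lox, which cross-links collagen, stood at 302 and 316 CPM against 4.05 and 4.95 CPM (6.102 ± 0.09). Each was high in both positive libraries. The tenascins Tnc and Tnn, of embryonic mesenchyme and bone, were higher by 4.21 and 6.95 on the log2 scale. The 2 lower genes were Sparc (1930 and 1898 CPM against 3862 and 3592 CPM, log2 -0.96), which binds collagen IV as well as bone matrix, and the microfibril gene Mfap5 (-0.68). The Mfap5 call was lost without the first negative or the first positive library (adjusted p up to 0.112).

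Matrix proteases and their inhibitors were called higher in 15 of 16 cases and lower in 1, with a median log2 change of 3.56. Mmp2, a gelatinase, stood at 798 and 784 CPM in the positive and 56.4 and 63.5 CPM in the negative libraries (3.72 ± 0.068), and Mmp9 stood at 125 and 119.9 CPM against 6.56 and 6.65 CPM (4.21 ± 0.082). Mmp13, a collagenase of hypertrophic cartilage and bone, had 4.46 and 3.63 CPM in the positive libraries and 4 counts in the negative ones. Adamts9, which cleaves versican and basement membrane components, was the 1 lower gene (-1.07).

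Single basement membrane genes went both ways. Of 18 tested members, 6 were called higher, 8 lower and 4 not called, with a median log2 change of -0.03. Over all tested genes 31.1% were called higher and 31% lower, and among protein-coding genes 37.6% and 34.1%. The counts lie near these shares and give no result about the list as a whole. Lama1, the laminin chain of the earliest embryonic basement membranes, stood at 3523 and 4121 CPM in the negative and 119.8 and 97.9 CPM in the positive libraries (-5.13 ± 0.19, adjusted p = 2.91e-07). Col4a1 stood at 6629 and 6777 CPM in the negative and 919 and 803 CPM in the positive libraries (-2.96 ± 0.072). The chains Lama2 and Lama4, of muscle, vessel and mesenchymal laminins, went the other way, with 89.5 and 71.8 CPM and 259 and 238 CPM in the positive libraries and log2 changes of 5.51 and 4.57.

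Lamb1, Lamc1 and Col4a2, which join Lama1 and Col4a1 in the same trimers, were lower, with log2 changes of -1.94, -2.17 and -2.503. The X-linked collagen IV chain Col4a5 was higher (2.49). Col4a1 and Col4a2 share exon bases on opposite strands, which these unstranded counts do not separate. In the sum over the 18 genes the negative libraries held 22400 and 24400 CPM and the positive libraries 6859 and 5976 CPM.

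All 19 genes of mesenchymal transition and adhesion that were tested were called higher, with a median log2 change of 2.60. Cdh11, the cadherin of loose mesenchyme, stood at 943 and 953 CPM in the positive and 27.5 and 28.8 CPM in the negative libraries (5.07 ± 0.076). Vim, the intermediate filament vimentin, stood at 1503 and 1574 CPM against 197 and 212 CPM (2.91 ± 0.068). Both fractions thus carried Vim, with the positive libraries the higher ones. Snai1, the early transition factor, changed least: it stood at 32.96 and 39.4 CPM against 29.1 and 32.1 CPM (0.24 ± 0.096, adjusted p = 0.0409). Its call was lost with library sizes alone, with a filter of 1 CPM, with DESeq2, with the ES cell libraries in the fit, and without the first negative or the second positive library (adjusted p 0.0646 to 0.415).

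All 19 smooth muscle and pericyte genes and all 7 tendon genes were called higher as well, with medians of 2.31 and 3.12. Acta2, smooth muscle actin, stood at 985 and 1044 CPM in the positive and 112 and 112 CPM in the negative libraries (3.17 ± 0.099). Pdgfrb, the receptor of pericytes and fibroblasts, stood at 173 and 159 CPM against 9.36 and 10.4 CPM (4.07 ± 0.095). Scx, the factor of tendon progenitors, stood at 27.8 and 31.9 CPM against 3.42 and 3.05 CPM (3.21 ± 0.18). The positive libraries were the high ones in all 3. Tnmd, of mature tendon, was under 0.5 CPM in every library, and its call was lost when any 1 library was left out (adjusted p 0.0553 to 0.106).

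Cartilage genes were mixed, with 12 of 19 called higher, 6 lower and 1 not called (median 2.35). Col2a1, the main cartilage collagen, stood at 71.05 and 57.8 CPM in the positive and 19.4 and 22.7 CPM in the negative libraries (1.61 ± 0.12). Hapln1, which links hyaluronan to proteoglycan, stood at 41.95 and 43.96 CPM against 1.2 and 0.83 CPM (5.404 ± 0.15). Acan, the main cartilage proteoglycan, was instead lower, at 2.59 and 2.73 CPM against 14.3 and 16.6 CPM (-2.54 ± 0.14). Ihh, which is expressed by hypertrophic chondrocytes and by visceral endoderm, was lower too (1.71 and 1.88 CPM against 15.9 and 17.2 CPM, log2 -3.21). The hypertrophic collagen Col10a1 had 32 counts in the positive libraries and none in the negative ones, at least 10.3-fold higher.

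**Figure D3:**
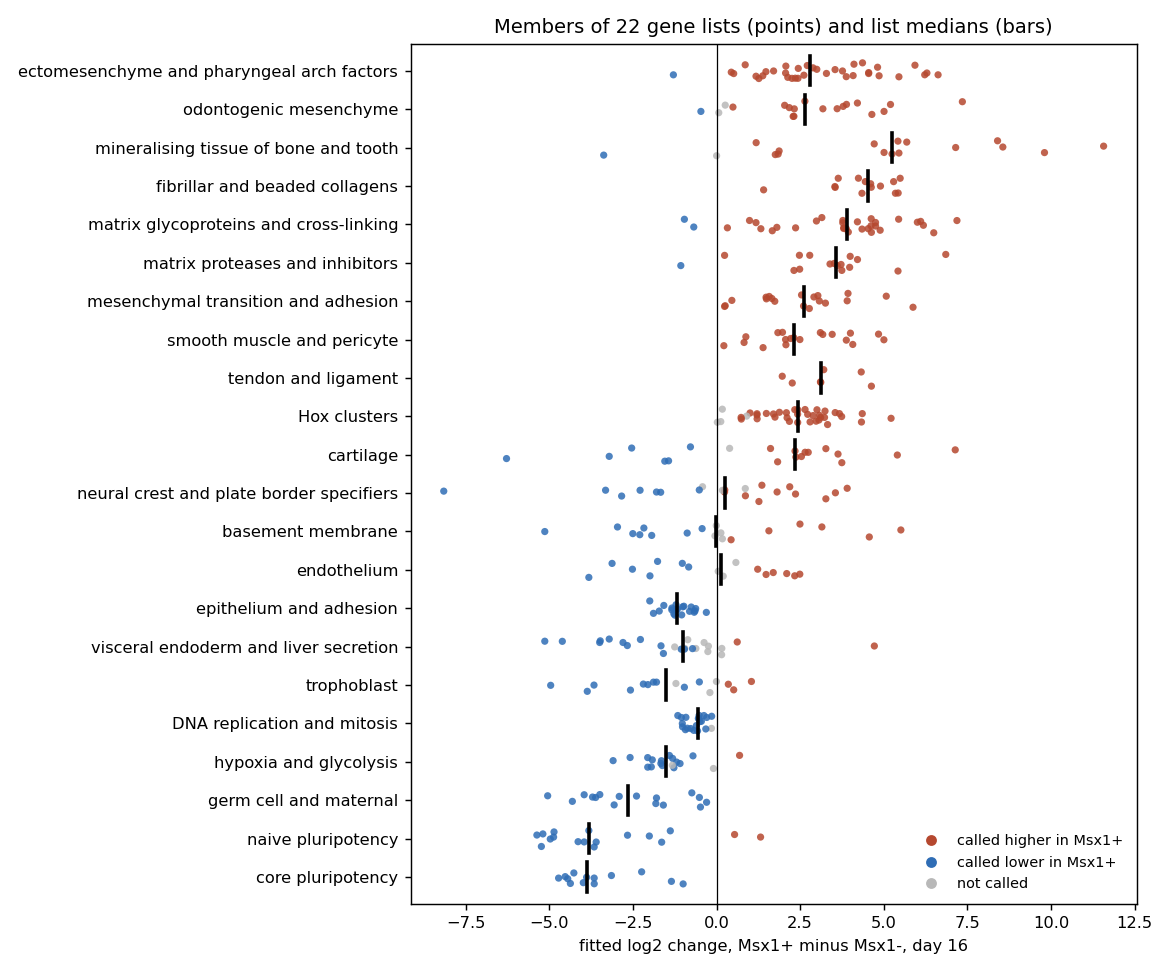
Fitted log2 change (Msx1-positive minus Msx1-negative, day 16) of every tested member of 22 gene lists, chosen from a larger number of lists. Points are genes, coloured by whether they were called higher (red), lower (blue) or not called (grey), and bars are list medians. The fat list, also of mesenchymal cells, is not drawn (median 0.44). The mesenchymal and matrix lists sit to the right of 0 (medians 2.31 to 5.25 from ectomesenchyme factors to tendon), the pluripotency lists to the left (-3.82 and -3.88), and cartilage, crest and basement membrane lists spread to both sides; the outermost points include genes with no count in one fraction, for which only a bound can be given.

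Hox genes, which set position along the trunk and limbs and are silent in the crest of the first pharyngeal arch, were higher across all 4 clusters. Of 39 genes tested, 35 were called higher and 4 were not called, with a median log2 change of 2.43. Hoxb1, Hoxc12 and Hoxc13, outer members of their clusters, were among those not called. The Hoxb genes summed to 141 and 137 CPM in the positive and to 20.9 and 22.6 CPM in the negative libraries. Hoxb9, a gene of the thoracic level, stood at 60.05 and 61.7 CPM in the positive and 7.14 and 9.34 CPM in the negative libraries (2.88 ± 0.11, adjusted p = 9.33e-12).

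Hoxc8 stood at 9.81 and 11.7 CPM in the positive and 0.714 and 0.332 CPM in the negative libraries (4.36 ± 0.31), and Hoxc6 at 12.2 and 13.3 CPM against 0.913 and 0.996 CPM (3.74 ± 0.25). Hoxb13, of the tail end of the body, was higher as well (3.23), whereas Hoxd13, of the same paralog group, changed by 0.73 ± 0.22 and was not called without the second negative library (adjusted p = 0.0917). The cluster medians were 1.70 for Hoxa, 2.98 for Hoxb, 3 for Hoxc and 2.43 for Hoxd; differences between clusters were not tested. Hoxd3 and Hoxd4 share exon bases, as do Hoxc5 and Hoxc10 in the annotation.

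**Figure D4:**
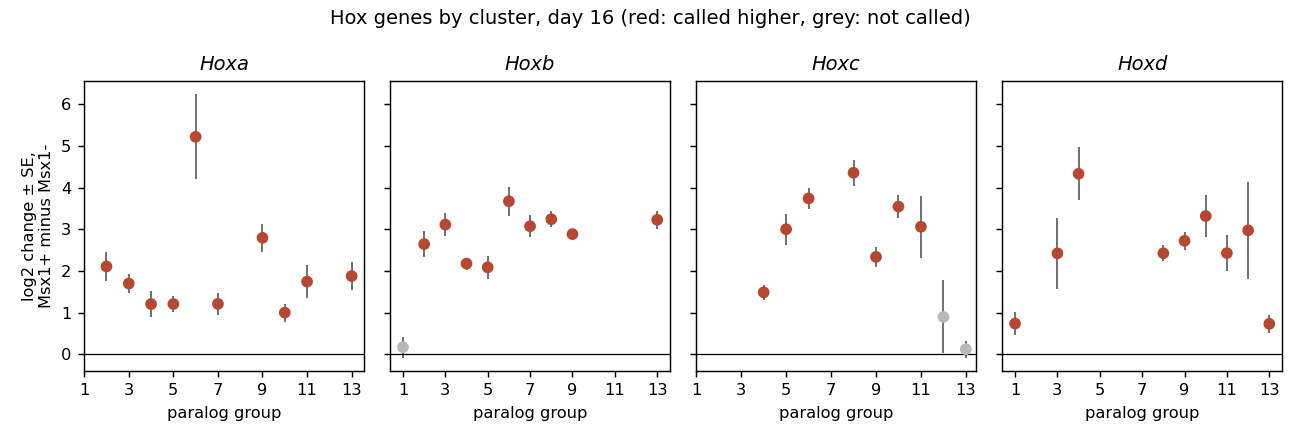
Log2 change (Msx1-positive minus Msx1-negative, day 16) of 38 of the 39 tested Hox genes with its approximate standard error, by paralog group within each cluster. Red points were called higher and grey points not called. Members called higher reach paralog group 13 at Hoxa13 (1.88), Hoxb13 (3.23) and Hoxd13 (0.73). The uncalled genes drawn are Hoxb1 (0.17), Hoxc12 (0.90) and Hoxc13 (0.13), and 1 tested gene is not drawn.

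Signalling genes leaned towards the positive fraction, pathway by pathway. Of the BMP pathway, whose ligands signal through Smad proteins and are restrained by secreted antagonists, 19 of 25 members were called higher and 4 lower (median 1.48). The ligands Bmp2 and Bmp4 stood at 53.2 and 56.4 and at 58.8 and 61.7 CPM in the positive libraries against 11.8 and 10.6 and 9.98 and 9.33 CPM in the negative ones, log2 changes of 2.29 and 2.64. Their targets Id1 and Id3 were higher by 2.505 and 2.36. The antagonists divided: Grem1 stood at 56.4 and 59.4 CPM against 0.83 and 0.813 CPM (6.14 ± 0.17), while Nog (-1.44) and Fst (-1.96) were lower.

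In the TGF-beta and activin pathway 13 of 19 genes were called higher and 6 lower (median 1.58). The ligand genes Tgfb1 and Tgfb3 were higher by 3.25 and 4.11, and Ltbp1 and Ltbp3, which tether the latent ligand to the matrix, by 3.34 and 4.07. Nodal, the ligand of the early embryo, stood at 6.84 and 7.66 CPM in the positive and 52.9 and 52.4 CPM in the negative libraries (-2.86 ± 0.079). Its feedback inhibitors Lefty1 and Lefty2 were lower with it (log2 -2.54 and -2.88).

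In the WNT pathway 22 of 30 genes were called higher and 3 lower (median 2.11). Wnt2, a ligand of organ mesenchyme, stood at 13.4 and 15.3 CPM in the positive and 0.133 and 0.083 CPM in the negative libraries (7.03 ± 0.28). Wnt5a, which signals mostly outside the beta-catenin branch, stood at 213 and 215 CPM against 6.69 and 6.59 CPM (5.01 ± 0.15). Axin2, the common beta-catenin target, stood at 60.4 and 51.2 CPM against 13.4 and 13.96 CPM (2.03 ± 0.13). In all 3 the positive libraries were the high ones. The secreted inhibitors Dkk2 and Dkk3 were higher too (4.76 and 4.48), and Wnt8a, Notum and Lgr4 were the 3 lower genes (-1.76, -0.52 and -0.32). The Lgr4 call was lost without the second negative library (adjusted p = 0.057).

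FGF genes divided by ligand, with 13 of 23 called higher and 5 lower (median 0.57). Fgf4, the autocrine ligand of ES cells, stood at 3.18 and 2.86 CPM in the positive and 122 and 128 CPM in the negative libraries (-5.37 ± 0.077, adjusted p = 1.72e-15). Fgf7, a ligand made by mesenchyme, stood at 11.3 and 13.8 CPM against 0.83 and 1.15 CPM (3.66 ± 0.39), and the receptor Fgfr1 at 475 and 470.0 CPM against 158 and 162 CPM (1.56 ± 0.059). The negative libraries were thus high in Fgf4 and low in Fgf7.

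Of 14 hedgehog genes, 10 were called higher and 2 lower (median 0.91). The co-receptors Boc and Gas1 were higher by 3.24 and 2.84, and Gli3, which mostly represses targets, by 2.503. Ptch1, a direct target, stood at 90.5 and 79.9 CPM in the positive and 81.6 and 91.2 CPM in the negative libraries and was not called (-0.02 ± 0.084, adjusted p = 0.845). The ligand Shh was at or near 1 CPM at most (0.984 and 1.09 CPM against 0.216 and 0.216 CPM). Notch genes were called higher in 8 of 15 cases and lower in 4, and retinoic acid genes in 11 and 4 of 15. The receptor Rarb and the retinoid-degrading enzyme Cyp26b1 were higher by 3.38 and 3.34, and the enzyme's paralog Cyp26a1 was lower (-1.303).

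Among 22 PDGF, endothelin and IGF genes, 17 were called higher and 3 lower (median 2.1). Igfbp4 stood at 965 and 1033 CPM in the positive and 67.5 and 69.5 CPM in the negative libraries (3.87 ± 0.063), and its relatives Igfbp3 and Igfbp5 were higher by 3.79 and 3.48. Igfbp2, of the same family of IGF-binding proteins, was lower, at 462 and 449.9 CPM against 1268 and 1354 CPM (-1.52 ± 0.062). Pdgfa, the ligand of Pdgfra, and Edn2 were the other 2 lower genes (-0.46 and -3.43).

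The pluripotency network was lower in the positive fraction without exception in its core: all 13 core genes were called lower, with a median log2 change of -3.88. Pou5f1, the POU factor of ES cells, stood at 16.1 and 16.7 CPM in the positive and 334 and 344 CPM in the negative libraries (-4.37 ± 0.064, adjusted p = 1.72e-15). Nanog (chr6:122707489-122714633), whose promoter stretch is given above, stood at 15.9 and 17.6 CPM against 452 and 432 CPM (-4.72 ± 0.085). Sox2 stood at 22.1 and 25.1 CPM against 346 and 350.5 CPM (-3.88 ± 0.071). The negative libraries were high in all 3, and the positive libraries still held 15.9 to 25.1 CPM of each.

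Of 17 naive-state genes, 15 were called lower and 2 higher (median -3.82). Esrrb, an orphan receptor of the naive state, stood at 21.3 and 21.4 CPM in the positive and 379.8 and 374 CPM in the negative libraries (-4.14 ± 0.061), and Tcl1, a cofactor of Akt, at 0.919 and 1.59 CPM against 50.3 and 44.9 CPM (-5.24 ± 0.16). The 2 higher genes were Stat3 (1.32) and its feedback inhibitor Socs3 (0.54), which many cell types use. Stat3 shares exon bases with Stat5a. Formative and primed genes were mixed, with 4 of 14 called higher and 7 lower: Otx2 was lower (-1.52), and Fgf5, the gene most used to mark the epiblast, was not called (8.65 and 8.21 CPM against 8.58 and 8.81 CPM, adjusted p = 0.758).

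Germ cell and maternal genes were all called lower (16 of 16, median -2.65). Ooep, an oocyte gene that is also active in ES cells, stood at 1.69 and 1.88 CPM in the positive and 62.9 and 55.3 CPM in the negative libraries (-5.05 ± 0.1). Dazl, a translational regulator of germ cells, stood at 7.04 and 8.15 CPM against 92.1 and 78.5 CPM (-3.49 ± 0.13). Ddx4, the vasa helicase, differed far less (19.7 and 19.9 CPM against 26.1 and 22.5 CPM, -0.297 ± 0.087), and its call was lost without the first negative library (adjusted p = 0.107). Of the 16 genes, Dppa3, Kit and Tfap2c also stand in other lists, and ES cells express several.

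All 20 epithelial genes were called lower, with a smaller median log2 change of -1.19. Epcam, the epithelial adhesion molecule that ES cells also carry, stood at 42.5 and 46.6 CPM in the positive and 174 and 181 CPM in the negative libraries (-1.996 ± 0.061). Cdh1, E-cadherin, stood at 174 and 175 CPM against 396 and 428 CPM (-1.24 ± 0.064), and the keratin Krt8 at 424 and 422 CPM against 648 and 657 CPM (-0.62 ± 0.052). The positive libraries thus kept sizeable levels of these genes. The epidermal factor Trp63 was near 1 to 2.5 CPM in all 4 libraries and was not called (0.795 ± 0.35, adjusted p = 0.0624), but was called higher with the day-16 libraries alone (adjusted p = 0.0411) and without the second positive library (1.11, adjusted p = 0.0294).

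Visceral endoderm genes were called lower more often than higher, and definitive endoderm genes were mixed. Of 18 definitive endoderm and gut genes, 6 were called higher, 8 lower and 4 not called (median -0.29). Of 24 visceral endoderm and liver genes, 13 were called lower, 2 higher and 9 not called (median -1.01); Lama1 and Sparc are in this list too. Cubn, the endocytic receptor of visceral endoderm and kidney, stood at 10.4 and 8.18 CPM in the positive and 218 and 237 CPM in the negative libraries (-4.61 ± 0.14). Sox17, which stands in the definitive endoderm and endothelial lists, stood at 8.81 and 10.6 CPM against 81.8 and 86.99 CPM (-3.12 ± 0.1), and Sox7, of parietal and visceral endoderm, at 2.4 and 2.29 CPM against 24.2 and 28.5 CPM (-3.49 ± 0.18). Each was high in the negative libraries. The visceral endoderm list summed to 9142 and 9482 CPM in the negative and to 2504 and 2444 CPM in the positive libraries. Lama1 (3523 and 4121 CPM) and Sparc (3862 and 3592 CPM) made up most of the sum in the negative libraries. The part of this list in the basement membrane changes was not tested.

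The 2 higher genes of the visceral endoderm list were Alb, albumin, with 1.67 and 1.91 CPM in the positive libraries and 8 counts in the negative ones, and Apob (0.62), whose call was lost without the first negative or the first positive library (adjusted p 0.0612 and 0.057). Ttr, a defining secreted product of visceral endoderm, stood at 9.02 and 10.4 CPM against 12.6 and 10.7 CPM and was not called (-0.26 ± 0.17, adjusted p = 0.203). Trophoblast genes were lower in 10 of 16 cases and higher in 3. Tpbpa, of the ectoplacental cone, stood at 0.23 and 0.505 CPM in the positive and 12.5 and 10.6 CPM in the negative libraries (-4.96 ± 0.29).

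Genes of other cell types were split. Of 16 endothelial genes, 6 were called higher and 7 lower: Kdr, the VEGF receptor, stood at 26.5 and 24.5 CPM in the positive and 3.82 and 5.26 CPM in the negative libraries (2.49 ± 0.14), but Pecam1 (10.2 and 9.32 CPM against 134 and 140.3 CPM, log2 -3.82), which ES cells also carry, and Cdh5 (-2.51) were lower. Of 14 tested blood genes, 6 were called higher and 4 lower; the embryonic globin Hba-x stood at 13.8 and 16.7 CPM against 4.48 and 5.78 CPM, while the pan-leukocyte Ptprc held 10 counts in each fraction. The myogenic factors Myod1 and Myog were under 1.2 CPM in every library and not called. Myod1 was called lower without the second positive library, which leaves a positive library with no count (adjusted p = 0.0169), and Myog with the day-16 libraries alone (adjusted p = 0.0317). Of 13 glial and melanocyte genes 1 was called higher and 5 lower, among them Olig1 (1.2 and 0.979 CPM against 22.6 and 22.4 CPM, log2 -4.37).

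Neural genes likewise went both ways, with 8 of 16 progenitor genes called higher and 4 lower. Of 20 neuron genes 8 were called higher and 7 lower, near the protein-coding shares of 37.6% and 34.1%. Nes, nestin, which crest-derived mesenchyme also expresses, stood at 179.7 and 158 CPM in the positive and 32.9 and 35.1 CPM in the negative libraries (2.31 ± 0.095). Sox1, of the neural plate, stood at 4.15 and 3.65 CPM against 14.7 and 16.1 CPM (-1.98 ± 0.11), and Stmn2, a growth cone protein of neurons, at 9.68 and 13.8 CPM against 128 and 121 CPM (-3.403 ± 0.13). The negative libraries were the high ones for Sox1 and Stmn2. The inhibitory neuron genes Gad1 and Gad2, known targets of Dlx factors in the forebrain, were near 2 CPM in every library and not called (log2 0.08 and 0.05, adjusted p = 0.733 and 0.875).

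Cell cycle genes were slightly lower in the positive fraction: of 21 replication and mitosis genes, 20 were called lower, with a median log2 change of -0.57. Ccnb1, the mitotic cyclin, stood at 167 and 170.0 CPM in the positive and 381 and 372 CPM in the negative libraries (-1.16 ± 0.054). Mki67, the proliferation marker, stood at 319 and 289 CPM against 317 and 358 CPM and was not called (-0.15 ± 0.08, adjusted p = 0.114), though it was with library sizes alone (adjusted p = 0.046) and without the first negative library (0.0302). Of 15 genes of cell cycle exit and p53 targets, 7 were called higher, 6 lower and 2 not called (median 0.06). The cyclin genes Ccnd1 and Ccnd2 and the Ink4 inhibitors were among the higher ones: Ccnd2 stood at 739.9 and 704 CPM against 55.6 and 59.8 CPM (3.65 ± 0.075), and Cdkn2a and Cdkn2b were higher by 2.44 and 2.58. Their relative Ccnd3 (-0.62) and the growth arrest gene Gadd45a (-1.44) were among the lower ones.

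Glycolysis and hypoxia genes were lower in 15 of 18 cases and higher in 1 (median -1.51). Pfkp, a phosphofructokinase, stood at 75.8 and 67.8 CPM in the positive and 625 and 599 CPM in the negative libraries (-3.09 ± 0.067), and Slc2a1, the glucose transporter, at 324 and 307 CPM against 968 and 1031 CPM (-1.66 ± 0.06). Both were high in the negative libraries. Pfkp shares exon bases with Pitrm1. Gapdh, which has many processed copies, was not called (-1.32 ± 0.44, adjusted p = 0.0573) but was with 5 of the alternatives. The exception was Car9 (0.69), whose call was lost without the second negative or the first positive library (adjusted p up to 0.145). Vegfa, another hypoxia target, was not called (-0.09 ± 0.062, adjusted p = 0.206).

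Genes linked to the handling of cells also differed. Of 14 immediate early and dissociation stress genes, 10 were called higher and 1 lower (median 0.71): Fos stood at 280.5 and 306 CPM in the positive and 154 and 140.1 CPM in the negative libraries (0.998 ± 0.064) and Egr1 at 547 and 586 CPM against 120.2 and 116 CPM (2.26 ± 0.06), while Atf3 was lower (-0.44). Egr1 is also in the tendon list. Among 13 mitochondrially encoded genes 3 were called lower and 10 were not called (median -0.54), mt-Co1 with 7259 and 8104 CPM against 9582 and 9835 CPM (-0.34 ± 0.063). Between 5 and 8 of the 13 were called lower with 5 of the alternatives, 8 of them with DESeq2. The part of these 2 lists in the changes above was not tested. Interferon and antigen presentation genes were called higher in 11 of 16 cases and lower in 1 (median 1.59), with Ifit1 at 11.2 and 12.8 CPM against 0.332 and 0.697 CPM (4.54 ± 0.27) and B2m at 146 and 175 CPM against 43.05 and 35.6 CPM (2.03 ± 0.16).

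Outside the lists, the most strongly higher genes at 5 CPM or more included Gldn (gliomedin, 74.1 and 70.1 CPM against 0.166 and 0.149 CPM, log2 8.82), Dio2 (a deiodinase that activates thyroid hormone, 7.87) and Gria1 (a glutamate receptor subunit, 7.84). Foxs1, a forkhead factor of pericytes, had 349 counts in the positive and none in the negative libraries, at least 113-fold higher. Chrna6, a nicotinic receptor subunit, had 344 and none, at least 111-fold higher. These genes were thus found almost only in the positive libraries.

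Among the most strongly lower genes, Gkn2, a gastrokine of the stomach lining, stood at 0.0328 and 0.126 CPM in the positive and 26.6 and 22.6 CPM in the negative libraries (-8.22 ± 0.42), and its neighbouring family member Gkn1 was lower too (log2 -7.55). Aqp8, a water channel of gut, pancreas and liver, stood at 1.66 and 1.25 CPM against 103 and 102 CPM (-6.15 ± 0.18), and Srgn, serglycin, a granule proteoglycan, at 2.12 and 3.82 CPM against 206 and 185 CPM (-6.04 ± 0.19). All of these were high in both negative libraries. Aire, which sets up self-antigen expression in the thymus, stood at 1.2 and 1.44 CPM against 61.4 and 56.9 CPM (-5.49 ± 0.11), but shares exon bases with its neighbour Dnmt3l, itself lower (log2 -4.45). Dppa5c was lower (-5.36, adjusted p = 0.0173), but reads may be shared with near-identical Dppa5 copies, and its call was lost when any 1 library was left out (adjusted p 0.0568 to 0.105). Dmrtc1c2 had no count in the positive and 195 counts in the negative libraries, at least 67-fold lower, and it too has a near-identical copy, Dmrtc1c1.

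The same sort at day 8 gives the comparison in time, in the same embryoid body system with inducible Dlx2 and doxycycline and 2 libraries a fraction. At day 8, 6772 genes (30.4%) were called higher and 5415 (24.3%) lower. Of the 13847 genes called at day 16, 9425 were called in the same direction at day 8, 592 in the opposite direction, and 3830 were not called at day 8. The difference between the effects of the 2 days was itself tested: 2294 genes (10.3%) had a day-16 effect above that of day 8, and 4090 (18.3%) one below. With library sizes alone these counts were 1088 and 5912, and 66.8% of the day-8 calls were higher instead of 55.6%. With relative log expression (RLE) scaling they were 2821 and 3829, and with DESeq2 2716 and 3718. The day-8 calls were then 52% and 51.9% higher, so the imbalance depends on the scaling in both directions. The median difference over all genes was -0.10 with TMM scaling, -0.05 with RLE scaling and -0.28 with library sizes alone.

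The pluripotency effect was stronger at day 16. Pou5f1 stood at 169.8 ± 6.02 CPM (mean ± SD, n = 2) in the positive and 550.0 ± 3.86 CPM in the negative fraction of day 8, a log2 change of -1.695 there and -4.37 at day 16, a difference of -2.67 ± 0.08 (adjusted p = 3.69e-11). Nanog and Fgf4 differed by -2.601 and -2.71 in the same way, and Epcam by -1.33. The day-16 effect was below that of day 8 in all 13 core pluripotency genes and in 18 of the 20 epithelial genes, where the background share is 18.3%. In the epithelial list 6 genes had been called higher and 9 lower at day 8.

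Basement membrane genes had sorting effects that differed between the days. Lama1 stood at 103 ± 0.575 CPM in the negative and 75.4 ± 15.7 CPM in the positive fraction of day 8, where it was not called (log2 -0.45, adjusted p = 0.0538), and the day-16 effect differed from that by -4.69 ± 0.24 (adjusted p = 1.06e-05). Col4a1 was called higher at day 8 (log2 0.91) and lower at day 16, a difference of -3.88 ± 0.098. The difference was called below 0 in 12 of the 18 basement membrane genes and above 0 in 1, against 18.3% and 10.3% of all tested genes. Trpv3, a cation channel of keratinocytes, and Aqp8, Srgn and Afp (alpha-fetoprotein) differed in the same direction, by -5.83, -5.14, -4.76 and -5.12.

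Several matrix genes showed the reverse. Ogn, osteoglycin, stood at 0.42 ± 0.0937 CPM in the positive and 0.136 ± 0.0866 CPM in the negative fraction of day 8, and the effect was larger by 4.39 ± 0.71 at day 16 (adjusted p = 0.000473), or by 3.53 (adjusted p = 0.058) without the first negative library of day 8. Aspn, which lies near Ogn on chromosome 13, differed by 3.68 ± 0.61. Clec11a, osteolectin, a growth factor for bone, was lower in the positive fraction of day 8 (log2 -0.66) and higher at day 16, a difference of 4.68 ± 0.28 (adjusted p = 2.07e-08), and Thy1, a fibroblast surface protein, differed by 2.75. Ibsp differed by 7.22 ± 1.3 (adjusted p = 0.000972), but only 6 and 2 counts stood in the negative fractions of the 2 days, and without the first negative library of day 8 the difference was 2.32 and not called (adjusted p = 0.927).

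Genes of the ectomesenchyme and odontogenic lists differed in both directions between the days. In the first, 12 of 36 genes had a day-16 effect above and 15 one below that of day 8. In the second, 3 of 19 genes had one above and 10 one below. Over all tested genes the shares were 10.3% above and 18.3% below, so the 3 genes above in the second list are near the background. Prrx1 differed by -2.02 ± 0.15, with the positive fraction at 178 ± 0.806 CPM and the negative at 0.709 ± 0.207 CPM on day 8, so that its level was higher in both fractions of day 16. Dmp1 was not called for a difference between the days (0.05, adjusted p = 0.962). It had only 2 counts in the negative fraction of day 8, too few to fix its day-8 effect, so equal effects were not shown. Its level in the positive fraction went from 16.7 ± 0.668 CPM at day 8 to 259 and 248 CPM at day 16. Barx1 (-0.08 ± 0.17, adjusted p = 0.767) was likewise not called. Dlx2 itself stood at 1219 ± 95.4 CPM in the positive and 274 ± 1.62 CPM in the negative fraction of day 8, above the day-16 level in both.

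**Figure D5:**
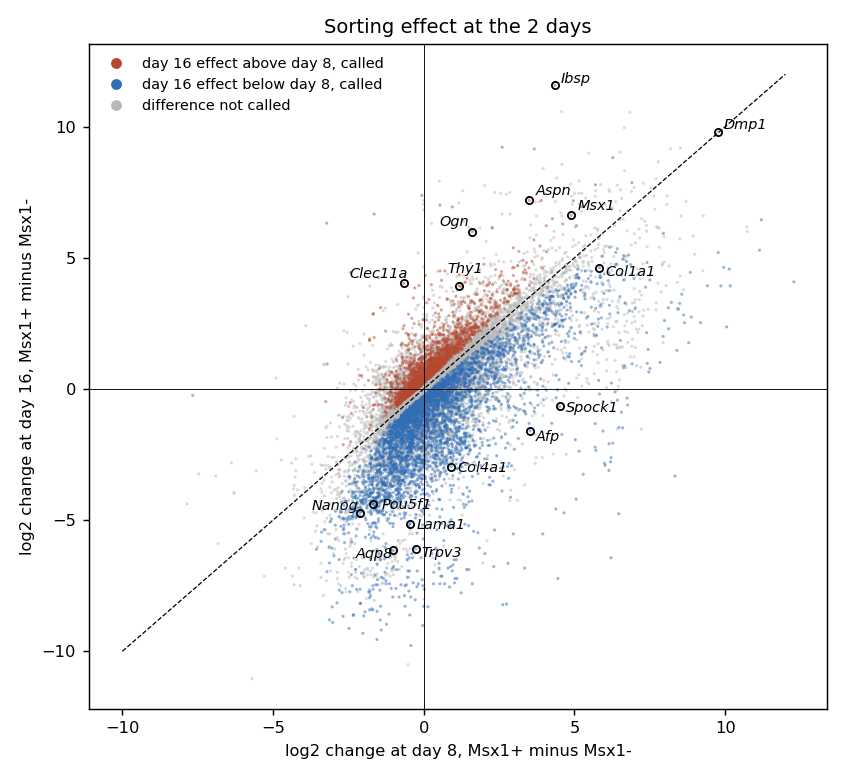
Fitted log2 change of the 22294 tested genes between Msx1-positive and Msx1-negative libraries at day 8 (horizontal) and day 16 (vertical); the dashed line marks equal effects, red points had a day-16 effect called above that of day 8, blue points one called below, and grey points were not called. Lama1, Col4a1, Aqp8 and Trpv3 lie far below the line, Ogn, Aspn and Clec11a above it, and Dmp1 on it (9.76 at day 8 and 9.80 at day 16). The day-8 value of Dmp1 rests on 2 counts in the negative fraction and is uncertain.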

How the data were processed

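The authors deposited raw read counts per gene symbol for the sorted libraries of days 8 and 16 and for ES cells, in whole numbers. Per the submitters' processing notes, fastp 0.20.0, HISAT2 2.1.0 and DESeq2 1.18.1 were used with the GRCm38 build. The sources used here do not give the read counter or its annotation. Per the labels' protocols, TRI Reagent was used for RNA and the NEBNext Ultra kit for libraries; that kit leaves strand unmarked, so reads of overlapping genes are not separated. The separate table of day 2 was not used here.

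The 8 sorted libraries were fitted together in edgeR 4.0.16 (R 4.3.3) with TMM scaling, its default filter on low counts, and a robust quasi-likelihood test of the sort at day 16, at day 8, and of the difference between them. P-values were Benjamini-Hochberg adjusted over the 22294 genes tested. The common biological coefficient of variation was 0.0884. The replicates of a group differed by more than sampling noise (chi-square per degree of freedom 5.49 to 18.5), so none was taken as a library deposited again. DESeq2 1.42.0, other scalings and filters, other sets of libraries, a replicate block and leaving out each library were tried as alternatives.

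The comparison, the gene lists and the tests were chosen with earlier results of these data known. Named by rule were Msx1 and Dlx2, and from each list its first 2 members, the 4 called members with the largest change at 1 CPM or more, the most abundant member and members called against the list's majority. Over all genes the rule took the 15 highest and 15 lowest called genes at 5 CPM or more with 10 counts or more in the lower fraction, 10 genes with no count in one fraction, and the 10 largest differences between days in each direction. Any other gene was chosen after its values were seen. Gene positions come from GENCODE vM21 (GRCm38), which held 22049 of the 22294 symbols once each. Some genes of these lists are counted in the list totals but not reported here by name.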

Additional observations from a re-analysis of the deposited data

Results flagged for a closer look

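The sorting effects of days 16 and 8 were compared by a test of the difference itself, which picked out every value given here. Over all genes 2294 had a day-16 effect above that of day 8 and 4090 one below. Each value below is the day-16 log2 change minus the day-8 log2 change. Only some of the called genes were chosen to be given. Those above 0 among them were Ibsp at 7.22, Clec11a at 4.68, Ogn at 4.39, Aspn at 3.68, Thy1 at 2.75 and Msx1 at 1.73. Ibsp rests on 6 and 2 counts in the negative fractions of days 8 and 16, and without the first negative library of day 8 it was 2.32 and not called (adjusted p = 0.927). Ogn was not called without that library either (3.53, adjusted p = 0.058). The chosen genes above 0 are of bone and soft matrix, a fibroblast surface protein, and the sort gene, whose log2 gap was thus wider at day 16. Genes outside this choice had gains as large, such as Insc at 4.28 and Gabra3 at 3.96.

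Among the chosen genes, Trpv3 stood at -5.83, Spock1, a testican proteoglycan, at -5.18, Aqp8 at -5.14 and Afp at -5.12. Srgn stood at -4.76, Lama1 at -4.69 and Col4a1 at -3.88. These were the chosen genes below 0 by more than 3 on the log2 scale. Genes outside the choice went further, such as Wfdc1 at -7.28 and Tcf23 at -6.46. Spock1 and Afp were higher in the positive fraction at day 8 and lower at day 16. The pluripotency and epithelial genes stood at -2.71 for Fgf4, -2.67 for Pou5f1, -2.6 for Nanog and -1.33 for Epcam. Alpl, which ES cells also carry, stood at -1.69 and Pfkp at -1.35. Among the mesenchymal genes Prrx1 stood at -2.02, Pax9 at -1.32, Col1a1 at -1.2 and Pitx1 at -0.604. Their gaps were thus narrower on the log2 scale at day 16, while they stayed higher in the positive fraction on both days. From day 8 to day 16 the mean CPM of the positive fraction went from 178 to 619 for Prrx1 and from 7.99 to 14.8 for Pax9. It went from 347 to 7458 for Col1a1 and from 137 to 94.2 for Pitx1. The mean CPM of the negative fraction went from 0.709 to 10.14 for Prrx1 and from 0.352 to 1.635 for Pax9. For Col1a1 it went from 6.1 to 302, and for Pitx1 from 6.53 to 6.83. Dlx2 stood at -0.972.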

How the results depend on the processing

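The day-16 comparison changed little with the processing. Over all alternatives 6117 to 7028 genes were called higher and 6067 to 7180 lower, and of the 420 genes with a day-16 value followed through 12 alternatives, 393 kept their direction and their side of the threshold. Leaving out each library in turn gave 6117 to 6344 higher and 6067 to 6335 lower genes. With the replicate block, 6564 genes were called higher and 6462 lower. Samples that share a replicate number did not deviate together (r = -0.0493 at day 16 and -0.0103 at day 8), and the labels tie a number to no culture or batch, so the block stayed an alternative. Counts over lists moved by more than 1.5 times in 2 cases. Skeletal muscle members called higher were 4 in the fit reported and 2 with the ES cell libraries added, and 2 to 3 when a library was left out. Mitochondrially encoded members called lower were 3 in the fit reported, 5 with library sizes alone, 6 with no filter on low counts, 5 with a filter of 1 CPM, 8 with DESeq2 and 5 with the day-16 libraries alone; the cause was not tested. Genes with a day-16 effect above that of day 8 numbered 2294 in the fit reported and 1088 with library sizes alone. They numbered 2821 with RLE scaling and 2716 with DESeq2. Among single genes, Postn was not called for a difference between days (-1.54, adjusted p = 0.0578) but was with library sizes alone (-1.73), a filter of 1 CPM (-1.54), the replicate block (-1.56) and without either negative library of day 8 (-3.71 and -0.763). Tfap2a became called for that difference with library sizes alone (-0.609, adjusted p = 0.0407). With 2 libraries a fraction and a strand-blind kit, genes of few counts and overlapping genes are the least certain, and intervals on counts cover counting error only.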

Other observations

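Split by GENCODE gene type, 6152 of 16372 protein-coding genes (37.6%) were called higher and 5589 (34.1%) lower in the positive fraction. Pseudogenes were called higher in 107 of 2009 cases (5.33%) and lower in 566 (28.2%), with a median log2 change of -0.61. Long noncoding genes were called higher in 627 and lower in 641 of 3358 cases. The lower genes of this class included Platr7 and Platr11, noncoding RNAs named for their link to pluripotency, at 0.148 and 0.126 and 0.148 and 0.0316 CPM in the positive and 7.74 and 6.89 and 5.39 and 4.75 CPM in the negative libraries. Pseudogenes resemble their parent genes, and the counting of reads that match several places is not given in the sources used here.

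Factors of other mesodermal organs also differed. Of 16 primitive streak and mesoderm genes, 10 were called higher and 4 lower. Meox1, of the somites, stood at 17.1 and 17.7 CPM in the positive and 3 and 2.49 CPM in the negative libraries (2.66 ± 0.15), and Tcf15, also of somites and active in ES cells, at 4.36 and 4.56 CPM against 35.9 and 41.7 CPM (-3.12 ± 0.14). Of 13 heart genes, 7 were called higher and 4 lower: the factor Tbx5 stood at 5.17 and 4.74 CPM against 0.133 and 0.266 CPM (4.62 ± 0.31), and Gata4, which endoderm also uses, at 39.7 and 40.05 CPM against 165 and 167 CPM (-2.06 ± 0.077). Of 9 kidney genes, 6 were called higher and 2 lower (median 1.18, highest 4.48). They summed to 616 and 581 CPM in the positive and to 364 and 391 CPM in the negative libraries. Nphs1, nephrin, went against the majority, at 1.02 and 0.505 CPM against 29.3 and 26.2 CPM (-5.19 ± 0.17). Of 6 fat genes, 3 were called higher and 1 lower, the adipocyte factor Pparg (4.92 and 5.5 CPM against 9.93 and 8.89 CPM, -0.85 ± 0.17). Of 17 surface ectoderm genes, 5 were called higher and 4 lower, both below the background shares.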
